A study of Homo sapiens with 9 samples.

Results

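The genes described here encode the proteins of the mitochondrial ribosome. They were chosen by symbol alone, as every row of the count table named MRPL or MRPS followed by a number and at most 1 letter, which gave 76 of 27730 gene symbols (47 MRPL and 29 MRPS). RNA was sequenced from HUES9, a line of human embryonic stem cells kept on a feeder layer of growth-arrested mouse embryonic fibroblasts and used at passages 44 to 46. The 3 groups held 3 libraries each, which the labels call independent experiments: untreated cells at day 1, cells at day 13 given 10 µM RP22, and cells at day 13 given 10 µM AA147. AA147 is a small molecule that switches on ATF6, a factor by which cells answer misfolded protein in the endoplasmic reticulum, and RP22 is its inactive analog. To differentiate, cells pretreated with Stemolecule were spun into embryoid bodies without FGF2, held in suspension and then plated on Matrigel. Compounds were dissolved in DMSO and renewed daily. A DMSO group at day 13 was not analysed here. All libraries come from 1 cell line, and any mouse feeder RNA in them cannot be told apart from human RNA in these counts. Only AA147 and RP22 are matched for time. Each comparison of day 13 with day 1 joins differentiation and compound, which cannot be told apart there.

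Mitochondria carry their own ribosome, which translates the few membrane proteins of the respiratory chain that mitochondrial DNA encodes. Its RNA comes from mitochondrial DNA, but all of its proteins are encoded in the nucleus, made in the cytosol and imported. The small subunit (mostly MRPS genes) reads the messenger, and the large subunit (mostly MRPL genes) joins the amino acids and passes the chain to the inner membrane. Many of the proteins have a relative in the bacterial ribosome, and others are found only in mitochondria. MRPS18A and MRPS30 carry small-subunit names but sit in the large subunit. The product of MRPS36, which RefSeq lists as KGD4, is now placed in the 2-oxoglutarate dehydrogenase complex. That gene met the symbol rule and was kept.

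Promoters of nuclear genes for mitochondrial proteins are known for sites of the ETS factor GABP, of NRF1 and of YY1. RefSeq promoters, 250 bases before to 50 after the start on GRCh38.p14, were matched by RefSeq gene identifier for 68 of the 76 genes. Those of MRPL10, MRPL13, MRPL15, MRPL2, MRPL21, MRPL23, MRPL35 and MRPS28 were not matched. The letters CCGGAAG, the core bound by ETS factors, were found on either strand in 27 of the 68 promoters (39.7%), against 10.3% of all 35116 promoters and 12.8% of the promoters of protein-coding genes and 15% of the promoters of genes tested for RP22 against day 1. The NRF1 motif, GCGCA and GCGC parted by any 1 base, was in 6 of 68 (8.82%), against 5.78%, 7.39% and 8.73% of the same sets, so that the share in the members was near that of the genes tested. AANATGGCG, the YY1 motif, was in 18 of 68 (26.5%), against 3.19%, 4.24% and 5.31%. In 15 of those 18 it lay only after the start, and its letters hold those of a start codon. The 3 motifs do not contain one another. A match is a description of the letters and not evidence of binding.

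The 120 bases before the start are shown for 7 genes, on the strand of the gene and with motif letters in capitals, because these genes recur below. MRPS34 has the most ETS cores of any member and one of the largest falls. MRPS9 fell and holds an NRF1 motif. MRPL51 and MRPL20 are the members with the highest levels per length. MRPL33 and MRPL17 are the members that were higher with AA147 than at day 1. MRPS31 was lower with AA147 than with RP22.
MRPS34, chr16:1773135-1773254, minus strand, 3 ETS cores: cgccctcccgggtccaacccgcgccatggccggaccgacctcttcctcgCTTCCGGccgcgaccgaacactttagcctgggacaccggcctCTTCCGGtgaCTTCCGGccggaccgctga
MRPS9, chr2:105037949-105038068, plus strand, 1 NRF1 motif: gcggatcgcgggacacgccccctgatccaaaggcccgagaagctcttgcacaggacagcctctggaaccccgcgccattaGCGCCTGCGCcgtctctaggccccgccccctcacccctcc
MRPL20, chr1:1407294-1407413, minus strand, 2 ETS cores: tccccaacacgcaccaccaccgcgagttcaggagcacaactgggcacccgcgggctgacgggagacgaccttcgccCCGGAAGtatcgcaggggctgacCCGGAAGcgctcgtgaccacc
MRPL51, chr12:6493263-6493382, minus strand, 2 ETS cores: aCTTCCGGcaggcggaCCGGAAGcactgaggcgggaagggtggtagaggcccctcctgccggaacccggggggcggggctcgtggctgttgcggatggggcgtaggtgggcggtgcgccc
MRPL33, chr2:27771599-27771718, plus strand, 1 ETS core: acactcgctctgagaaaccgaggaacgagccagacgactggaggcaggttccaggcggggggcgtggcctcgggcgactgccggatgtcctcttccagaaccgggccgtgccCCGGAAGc
MRPL17, chr11:6683341-6683460, minus strand, 1 NRF1 motif: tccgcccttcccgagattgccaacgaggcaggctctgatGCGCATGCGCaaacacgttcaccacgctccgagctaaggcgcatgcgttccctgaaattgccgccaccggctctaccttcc
MRPS31, chr13:40771191-40771310, minus strand, 1 ETS core: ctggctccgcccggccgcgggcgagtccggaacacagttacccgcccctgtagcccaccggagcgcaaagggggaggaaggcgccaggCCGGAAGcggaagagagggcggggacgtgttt

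The libraries held 9223026 to 10118260 reads assigned to genes. All 76 genes had reads in every library and all passed the filter on low counts in every comparison. Replicates differed by more than sampling noise. For 2 libraries of a group, chi-square over genes divided by its degrees of freedom was 2.45 or more. RP22 replicate 1 stood apart from the other 2 RP22 libraries (29.3 and 28.2, against 2.45 between those 2). Day 1 replicate 1 was the lowest of the day 1 libraries for 65 of the 76 genes, against 39.4% of 14282 genes above 1 CPM (counts scaled to a common library size). The summed level of 8 markers of pluripotent cells was 6300 to 7126 CPM at day 1, 397 to 682 CPM with RP22 and 126 to 159 CPM with AA147.

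As a pool, the transcripts of the mitochondrial ribosome were lower at day 13 than at day 1 with either compound. Levels below are CPM scaled over all 9 libraries by TMM, a method that takes most genes as unchanged between libraries. On that scale the 76 genes summed to 4318, 5007 and 4885 CPM at day 1, to 2425, 2456 and 2368 CPM with RP22, and to 2615, 2785 and 2750 CPM with AA147. All 6 day 13 libraries lay below all day 1 libraries, and all AA147 libraries above all RP22 libraries. As a plain share of reads, with no such scaling, the pool made up 0.467%, 0.542% and 0.528% of reads at day 1, 0.269%, 0.289% and 0.280% with RP22, and 0.214%, 0.219% and 0.217% with AA147. On that scale the AA147 libraries were below the RP22 libraries. The 2 scales thus placed day 13 below day 1 alike and ordered AA147 and RP22 in opposite ways. An exact permutation test of 3 against 3 libraries cannot go below a two-sided p of 0.1, so no p is given for the sums. In bulk RNA, fewer cells of a type and less RNA per cell cannot be told apart. The log2 fold changes below come from fits of 6 libraries, each with its own TMM scaling. They need not equal the ratios of the CPM printed beside them.

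**Figure D1:**
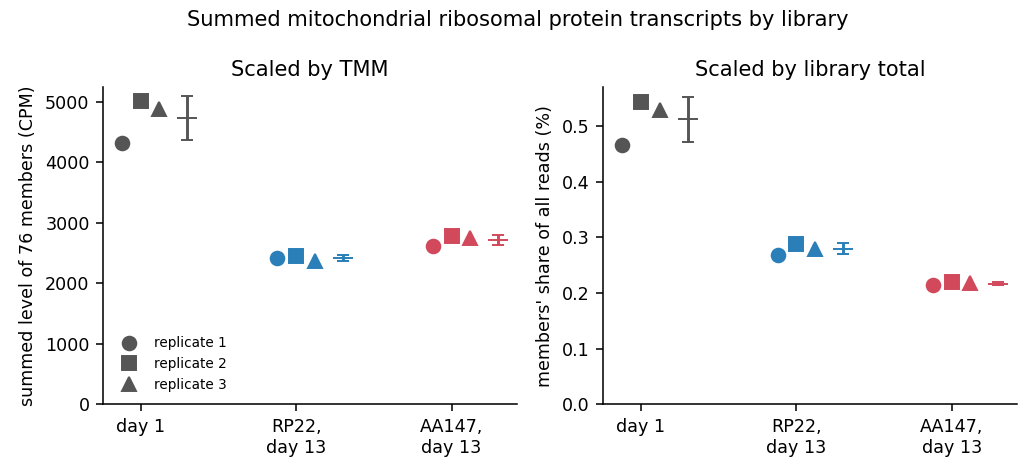
Summed level of the 76 genes in each library, in CPM scaled by TMM (left) and as a percentage of all reads (right), with replicates as symbols and the mean ± SD (n = 3) beside them. Day 1 is highest on both axes, while AA147 lies above RP22 on the left (2615 to 2785 against 2368 to 2456 CPM) and below it on the right (0.214% to 0.219% against 0.269% to 0.289%).

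With RP22 at day 13, 70 of the 76 genes were lower than at day 1. This was read from edgeR's quasi-likelihood F test, with Benjamini-Hochberg adjustment over all 14558 genes tested and a threshold of 0.05. Of all genes tested, 35.2% were called lower and 36.6% higher, 71.9% in all. None of the 76 was called higher, and none was higher at an unadjusted p under 0.05, since all 76 log2 fold changes were negative. DESeq2 and limma-voom also called none higher, with 68 and 71 lower. The groups did not overlap for 73 genes, all of them lower with RP22, against 38.1% of all genes. The median log2 fold change of the 76 was -0.97, against 0.02 over all genes tested. For 33 of them the fall was at least 2-fold and called, against 12.5% of all genes. The 6 without a call were MRPL17, MRPL33, MRPL40, MRPL55, MRPS14 and MRPS25. With library totals in place of TMM, 68 were lower and none higher.

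The largest falls with RP22 were those of MRPS24, MRPS30, MRPL11 and MRPS34. MRPS24, the relative of bacterial uS3 at the messenger's entry, stood at 38.1, 24.5 and 51.4 CPM at day 1 and at 12.3, 10.7 and 11.7 CPM with RP22. Its groups did not overlap, although its day 1 libraries had the largest coefficient of variation of the 76 genes (35.4%). Its log2 fold change was -1.71 ± 0.26 (SE, adjusted p = 0.00075), and the call was lost when replicate 1 of both groups was left out. MRPS30, a large-subunit protein of the central protuberance, fell from 57.3, 75.1 and 66.5 CPM to 19.7, 20.8 and 21.6 CPM (log2 fold change -1.68 ± 0.12, adjusted p = 8.0e-06). MRPL11, at the base of the stalk where translation factors dock, went from 78.3, 86.3 and 91.1 CPM to 26.8, 29.7 and 29.9 CPM (-1.57 ± 0.09, adjusted p = 4.0e-06). MRPS34, a small-subunit protein with no bacterial relative, went from 96.3, 109 and 124 CPM to 36.4, 40.5 and 35.8 CPM (-1.55 ± 0.11, adjusted p = 9.6e-06). In these 3 genes the gap between the groups was wider than the spread within either.

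With AA147 at day 13, 64 of the 76 genes were lower than at day 1 and 2 were higher. Of the 13761 genes tested, 40.4% were called lower and 38.7% higher, 79.1% in all. The median of the 76 was -0.82, against -0.04 over all genes tested, and 28 fell at least 2-fold with a call, against 21.5% of all genes. The groups did not overlap for 66 genes, 64 of them lower, against 82.4% and 42.0% of all genes. With library totals the median was -1.25, against -0.48 over all genes, with 71 lower and 1 higher. This comparison shares its day 1 libraries with that of RP22, so the values of both stand side by side and their likeness was not tested.

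The largest falls with AA147 were those of MRPL11, MRPL12, MRPL16 and MRPS24. MRPL11 stood at 21.8, 24.3 and 24.4 CPM with AA147, below all RP22 libraries (log2 fold change against day 1 -1.86 ± 0.10, adjusted p = 1.2e-07). MRPL12, which forms the mobile part of the stalk and is also reported to bind mitochondrial RNA polymerase, went from 90.2, 131 and 112 CPM at day 1 to 37.4, 35.7 and 37.4 CPM (-1.59 ± 0.13, adjusted p = 3.1e-06). With RP22 it stood at 39.3, 39.2 and 41.2 CPM (-1.48 ± 0.13, adjusted p = 2.9e-05). MRPL16, near the peptidyl transferase centre, went from 53.0, 60.3 and 58.8 CPM to 19.0, 21.0 and 19.7 CPM (-1.53 ± 0.10, adjusted p = 4.2e-07). MRPS24 stood at 13.8, 14.6 and 13.1 CPM (-1.46 ± 0.26, adjusted p = 0.00089), and its call was again lost when replicate 1 of both groups was left out.

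MRPL33 and MRPL17 were the 2 genes called higher with AA147 than at day 1. MRPL33, a small large-subunit protein with a bacterial relative, stood at 31.2, 30.0 and 30.7 CPM at day 1, at 27.5, 29.0 and 29.3 CPM with RP22 and at 44.97, 55.2 and 49.8 CPM with AA147. The AA147 libraries were above all others, and the day 1 libraries above all RP22 libraries by a small margin. The log2 fold change of AA147 against day 1 was 0.70 ± 0.10 (adjusted p = 9.2e-05), and that of RP22 was -0.10 ± 0.09 (adjusted p = 0.31). MRPL17, at the rim of the exit tunnel, stood at 34.5, 46.9 and 44.6 CPM at day 1, at 38.9, 26.8 and 25.5 CPM with RP22 and at 49.0, 57.7 and 52.3 CPM with AA147. Its AA147 libraries were the highest, while RP22 replicate 1 fell among the day 1 libraries. Its rise with AA147 was small (0.34 ± 0.12, adjusted p = 0.032). The call was lost without day 1 replicate 1, without AA147 replicate 2 or 3, and with all 9 libraries in 1 fit, and library totals turned the value to -0.10.

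**Figure D2:**
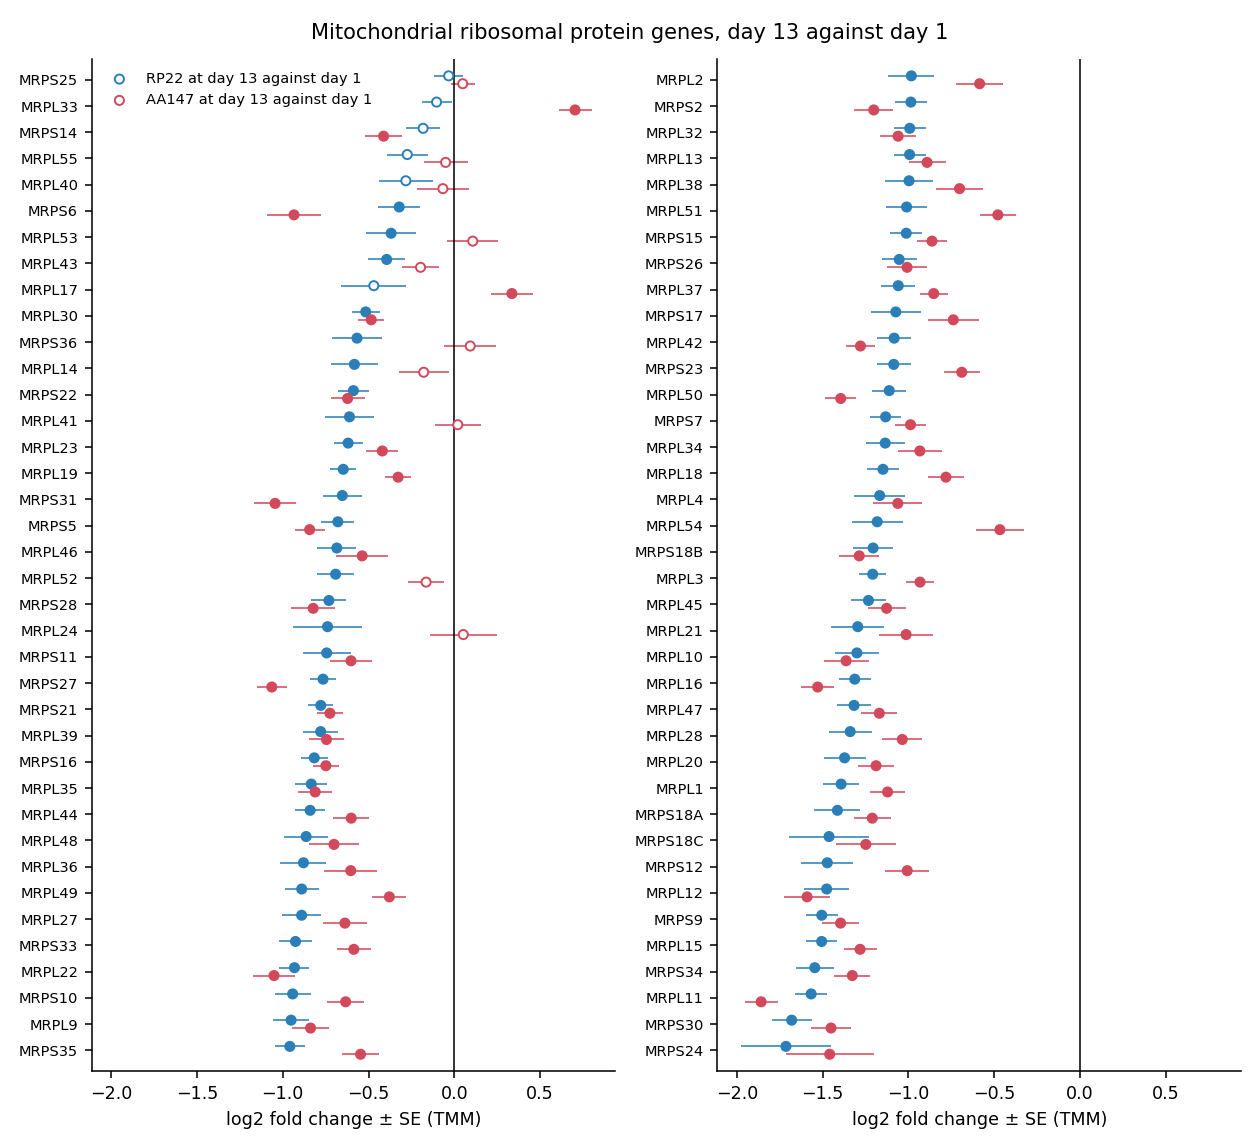
Log2 fold change against day 1 (± SE, TMM scale) of each of the 76 genes with RP22 (blue) and AA147 (red), in order of the RP22 value. Filled points have an adjusted p under 0.05. All RP22 points are below 0, and of the AA147 points 69 are below 0, with MRPL33 farthest above it at 0.70.

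In the small subunit the falls took in genes with and without bacterial relatives. Of the 16 with a bacterial relative, 15 fell with RP22 (median -0.96) and all 16 with AA147 (median -0.85). MRPS14, of the subunit's head, was the one without a call for RP22, at 31.0, 27.5 and 31.0 CPM at day 1, 27.2, 26.9 and 24.9 CPM with RP22 and 22.8, 23.4 and 21.0 CPM with AA147. The list without a bacterial relative holds MRPS18B, although MRPS18A and MRPS18C, copies of the same ancestral gene, are listed with one. Of the 10 listed without a bacterial relative, 9 fell with each compound (medians -0.94 and -0.85). The remaining one was MRPS25 both times, at 132, 137 and 129 CPM at day 1, 118, 129 and 143 CPM with RP22 and 130, 140 and 141 CPM with AA147. On the TMM scale its groups overlapped in all 3 comparisons, and its log2 fold changes lay between -0.03 and 0.05. With library totals MRPS25 was called lower with AA147 than at day 1 (-0.39, adjusted p = 0.00041) and than with RP22 (-0.46, adjusted p = 0.0032). RP22 against day 1 had no call there (0.07, adjusted p = 0.56).

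In the large subunit, 28 of the 31 genes with a bacterial relative fell with RP22 (median -0.99) and 26 with AA147 (median -0.93), where 2 rose. Of the 18 without one, 17 fell with RP22 (median -0.88) and 13 with AA147 (median -0.57). The parts of the subunit differed in their medians. The 5 genes of the stalk had medians of -1.30 and -1.36, the 7 of the exit tunnel -0.78 and -0.60, and the 8 of the central protuberance -0.88 and -0.67. These lists are short and their differences were not tested.

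Within the stalk, MRPL10, MRPL11 and MRPL12 fell by over 2-fold with each compound and MRPL53 did not. MRPL10, which anchors MRPL12, went from 71.9, 97.0 and 76.2 CPM at day 1 to 31.0, 35.9 and 32.7 CPM with RP22 and 28.5, 31.7 and 35.0 CPM with AA147 (log2 fold changes -1.30 ± 0.13 and -1.36 ± 0.13). MRPL53, a mitochondria-specific protein near the stalk, stood at 14.3, 18.7 and 15.1 CPM, 12.8, 12.5 and 12.04 CPM, and 15.7, 18.6 and 17.5 CPM. Its values were -0.37 ± 0.14 with RP22 (adjusted p = 0.048) and 0.11 ± 0.15 with AA147 (adjusted p = 0.52). The RP22 call held under only 4 of 17 alternatives. MRPL54, also near the stalk, went from 18.8, 23.1 and 22.8 CPM to 8.97, 10.7 and 8.78 CPM with RP22 (-1.18 ± 0.15) and to 14.8, 14.6 and 17.3 CPM with AA147 (-0.47 ± 0.14). Its 3 groups did not overlap, with RP22 lowest and day 1 highest.

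Among the exit tunnel genes, MRPL45, which holds the ribosome to the inner membrane, showed the largest falls (-1.23 ± 0.10 with RP22 and -1.13 ± 0.11 with AA147). MRPL22 followed at -0.93 ± 0.09 and -1.05 ± 0.12. MRPL39 (-0.78 and -0.75), MRPL44 (-0.84 and -0.60) and MRPL23 (-0.62 and -0.42) were also called lower with each compound. MRPL24, next to the tunnel's opening, stood at 18.9, 30.8 and 31.8 CPM at day 1, 17.8, 15.7 and 15.4 CPM with RP22 and 25.04, 29.1 and 30.4 CPM with AA147. Day 1 replicate 1 lay far below the other 2 day 1 libraries and close to RP22. MRPL24 was called lower with RP22 (-0.74 ± 0.20, adjusted p = 0.010) and not with AA147 (0.05 ± 0.19, adjusted p = 0.81).

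Of the central protuberance, which bridges the subunits, MRPS30 fell the most and MRPL40 had no call with either compound. MRPL40 stood at 14.8, 20.5 and 17.4 CPM at day 1, 15.7, 14.7 and 13.0 CPM with RP22, and 16.9, 16.0 and 17.4 CPM with AA147, and its groups overlapped. MRPL52 fell with RP22 (-0.69 ± 0.11) and was at -0.16 ± 0.10 with AA147 (adjusted p = 0.17). With library totals both MRPL40 (-0.50, adjusted p = 0.012) and MRPL52 (-0.60, adjusted p = 0.00039) were called lower with AA147 than at day 1. The other 5 genes (MRPL18, MRPL27, MRPL38, MRPL46 and MRPL48) were called lower with each compound. Their values ran from -1.15 for MRPL18 to -0.69 for MRPL46 with RP22 and from -0.78 to -0.54 for the same 2 genes with AA147.

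The 3 MRPS18 genes are copies of one ancestral gene whose proteins occupy 3 different places in the ribosome, MRPS18C and MRPS18B in the small subunit and MRPS18A in the large. All 3 fell with each compound. MRPS18A went from 43.4, 53.3 and 51.0 CPM at day 1 to 21.0, 15.8 and 18.7 CPM with RP22 and 20.5, 22.3 and 21.0 CPM with AA147 (-1.41 ± 0.13 and -1.21 ± 0.11). MRPS18B went from 58.9, 76.9 and 72.9 CPM to 31.9, 30.5 and 28.3 CPM and 26.7, 28.5 and 30.2 CPM (-1.21 ± 0.12 and -1.29 ± 0.12). MRPS18C, the least abundant member per length, went from 15.4, 22.2 and 19.6 CPM to 7.94, 8.01 and 4.85 CPM and 7.74, 7.86 and 8.44 CPM (-1.46 ± 0.23 and -1.25 ± 0.17). On the TMM scale none of the 3 had a call between AA147 and RP22. With library totals MRPS18B (-0.62, adjusted p = 0.00043) and MRPS18A (-0.33, adjusted p = 0.038) were called lower with AA147. MRPS18C was not (-0.32, adjusted p = 0.23).

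Levels of different genes were compared as RPKM, which divides by gene length. MRPL51, found only in mitochondria, was the highest member in all groups, at 182, 229 and 231 RPKM at day 1, 121, 116 and 103 RPKM with RP22 and 107, 112 and 120 RPKM with AA147. The highest member exceeded the lowest by 15.4-fold at day 1, 15.9-fold with RP22 and 19.8-fold with AA147, although most of these proteins are single-copy parts of one particle. MRPL20, the relative of a bacterial protein that joins early in assembly, was next highest over all libraries (mean 94.0 RPKM), then MRPL33 (68.2). The lowest were MRPS18C (10.4), MRPL19 (10.5) and MRPL22 (10.9). The order changed with the group. MRPL33 was 16th at day 1 and 2nd with AA147, while MRPL11 went from 26th to 67th and MRPL12 from 3rd to 14th. MRPL17 rose from 68th to 37th and MRPL24 from 56th to 25th. Named pseudogenes are listed by RefSeq for 41 of the 76 genes, 98 in all, and none has its own row in the table, so reads from such copies cannot be told apart from those of the parent genes.

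Between the 2 compounds at day 13 the differences were small and ran both ways. Of the 76 genes, 18 were called higher and 9 lower with AA147 than with RP22, and none differed by 2-fold, while 18.1% of all genes were called lower by at least that much. With library totals MRPS6 was lower by more than 2-fold (-1.15, adjusted p = 0.00037). Of all 14293 genes tested, 29.8% were called higher and 32.2% lower, 62.0% in all. The groups did not overlap for 36 of the 76, against 69.9% of all genes. The median was 0.12, against -0.03 over all genes. This split depends on the scale. With library totals 1 gene was higher and 48 were lower, with a median of -0.34 against -0.49 over all genes. The shift between the 2 scales was -0.45 for the median of all genes, and on both the median of the 76 lay 0.15 above that of all genes. DESeq2 called 12 higher and 5 lower. Leaving out single libraries left 12 to 18 higher and 3 to 7 lower, with 5 lower without AA147 replicate 3 and 3 lower without RP22 replicate 2 or 3. Without replicate 1 of both groups 23 were higher and 9 lower.

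The 49 genes without a call are not shown to be equal between the compounds. Their 95% intervals on the TMM scale were taken with the 4 residual degrees of freedom of 6 libraries. All lay within a 2-fold difference, from -0.55 to 0.80 in log2 units. For 37 of them the interval lay within 0.5 on either side of 0. MRPS25 had an estimate of 0.00 with an interval of -0.24 to 0.24, and MRPS12, a protein of the decoding centre, had the widest upper bound, 0.80. These intervals do not carry over to library totals. There some of the 49 were called lower, such as MRPS5 (-0.70, adjusted p = 0.00093) and MRPS25 (-0.46, adjusted p = 0.0032). Others had no call there either, such as MRPS12 (-0.07, adjusted p = 0.68).

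**Figure D3:**
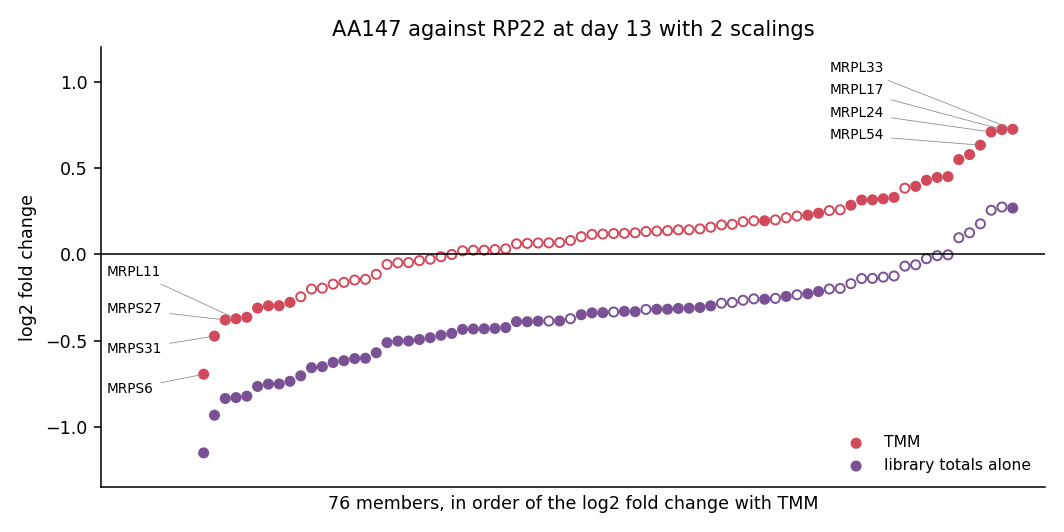
Log2 fold change of AA147 against RP22 at day 13 for the 76 genes, in order of the value with TMM (red), beside the value with library totals alone (purple). Filled points have an adjusted p under 0.05. The whole series of points moves down by about the same step, so that 18 higher and 9 lower calls become 1 higher and 48 lower.

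Among the genes higher with AA147, the largest differences were those of MRPL33, MRPL17, MRPL24 and MRPL54, whose library values are given above. MRPL33 was higher by 0.72 ± 0.09 (log2, adjusted p = 0.00032), in 3 of 3 libraries, and was still called higher with library totals (0.27 ± 0.10, adjusted p = 0.036). It kept its call under all 17 alternatives. MRPL17 differed by 0.72 ± 0.16 (adjusted p = 0.0056), MRPL24 by 0.71 ± 0.11 (adjusted p = 0.00097) and MRPL54 by 0.63 ± 0.15 (adjusted p = 0.0072). With library totals these 3 kept a positive sign, at 0.27, 0.26 and 0.18, and lost the call. Other genes called higher on the TMM scale were MRPL41 (0.55), MRPL51 (0.45), MRPL52 (0.45) and MRPL49 (0.43), all large-subunit proteins without a bacterial relative. With library totals these 4 stood at 0.10, -0.003, -0.01 and -0.03, with no call. The remaining 9 higher calls lay between 0.19 (MRPL3) and 0.39 (MRPL53). All 9 were negative with library totals, where MRPL3 (-0.26, adjusted p = 0.0092), MRPS10 (-0.23, adjusted p = 0.048) and MRPL19 (-0.22, adjusted p = 0.018) were called lower. MRPS36, of the dehydrogenase complex, stood at 14.7, 13.2 and 11.9 CPM with RP22 and at 18.0, 24.4 and 20.4 CPM with AA147 (0.58 ± 0.15, adjusted p = 0.0092).

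Among the genes lower with AA147, the largest differences were those of MRPS6, MRPS31, MRPS27 and MRPL11. MRPS6, of the small subunit's platform, stood at 18.5, 16.2 and 17.1 CPM at day 1, 13.3, 14.7 and 13.5 CPM with RP22 and 7.87, 10.3 and 8.95 CPM with AA147. The 3 groups did not overlap and AA147 was lowest (AA147 against RP22 -0.70 ± 0.15, adjusted p = 0.0047). Its own fall from day 1 with RP22 was small (-0.32 ± 0.12, adjusted p = 0.043) and held under only 1 of 17 alternatives. MRPS31, a mitochondria-specific protein of the small subunit's head, stood at 42.8, 49.2 and 46.2 CPM, 25.5, 32.2 and 30.2 CPM, and 18.6, 24.8 and 23.6 CPM in the same order (-0.47 ± 0.14, adjusted p = 0.017). Without RP22 replicate 2 or 3 this call was lost. MRPS27, a protein of pentatricopeptide repeats, stood at 118, 116 and 106 CPM, 67.2, 67.7 and 64.97 CPM, and 51.1, 52.3 and 58.8 CPM (-0.38 ± 0.08, adjusted p = 0.0029). MRPL11 differed by -0.37 ± 0.09 (adjusted p = 0.0097), a call lost without RP22 replicate 3. With library totals all 4 were lower by more, from -1.15 for MRPS6 to -0.83 for MRPL11, each with a call. The other 5 genes called lower were MRPL50 (-0.37), MRPS14 (-0.31), MRPL16 (-0.30), MRPS2 (-0.30) and MRPL42 (-0.28). Their calls held under 13, 12, 8, 8 and 7 of 17 alternatives in that order, library totals among them for each. The groups of MRPL42 overlapped.

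**Figure D4:**
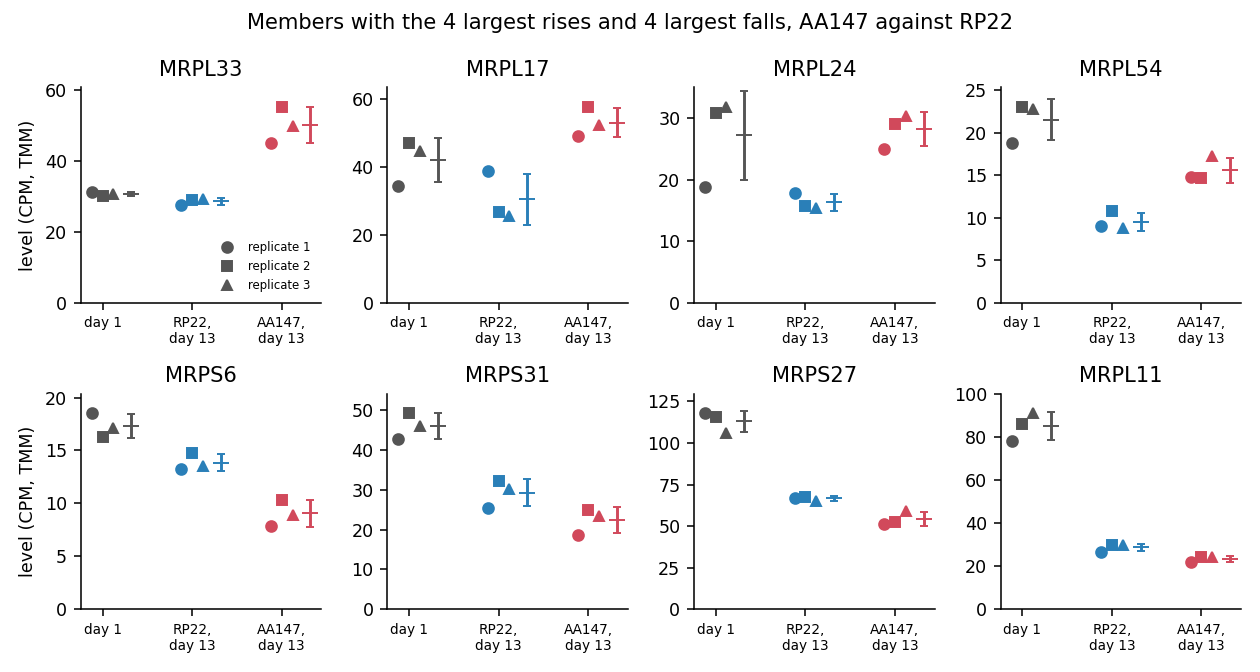
Level in CPM (TMM scale) of the 4 genes with the largest rises and the 4 with the largest falls called between AA147 and RP22, by library, with the mean ± SD (n = 3) beside the points. In the upper row the AA147 libraries lie above the RP22 libraries, and in the lower row they lie below, as for MRPS6 at 7.87 to 10.3 against 13.3 to 14.7 CPM.

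Among MRPL symbols 14 of 47 were called higher with AA147 than with RP22 (29.8%, the same share as of all genes tested) and 4 lower. Among MRPS symbols 4 of 29 were higher (13.8%) and 5 lower. The medians were 0.13 and 0.06. With library totals the same medians were -0.32 and -0.39. The difference between the 2 families was not tested.

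The share of each gene within the pool of 76 does not depend on how libraries are scaled. It was computed as the gene's percentage of the reads of all 76. MRPL33 made up 0.723%, 0.598% and 0.629% of the pool at day 1, 1.13%, 1.18% and 1.24% with RP22 and 1.72%, 1.98% and 1.81% with AA147. MRPL17 made up 0.799%, 0.936% and 0.912%, then 1.60%, 1.09% and 1.077%, and 1.88%, 2.07% and 1.90% in the same order. Both rose in share from day 1 to RP22 to AA147, with no overlap between groups. MRPL11 went the other way, from 1.81%, 1.72% and 1.87% at day 1 to 1.11%, 1.21% and 1.26% with RP22 and 0.833%, 0.872% and 0.889% with AA147. MRPL12 fell from 2.09%, 2.61% and 2.30% to 1.62%, 1.60% and 1.74% and then 1.43%, 1.28% and 1.36%. Between AA147 and RP22 the shares of 38 genes did not overlap, 18 higher and 20 lower with AA147, which is 50% of the members. Reads of all 14293 genes tested, set against the same pool, did not overlap for 70.1%. With 3 libraries against 3 the exact two-sided p of each is 0.1, the smallest the design allows.

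Read over all 3 comparisons on the TMM scale, 45 of the 76 genes were called lower with each compound than at day 1 with no call between the compounds, a class that held 14.3% of the 13410 genes tested in all 3. Another 10 were lower with each compound but higher with AA147 than with RP22 (3.08% of all genes), and 8 were lower with each and lower with AA147 than with RP22 (11.4% of all genes). For 6 genes the fall was called with RP22 only and AA147 was higher than RP22 (MRPL14, MRPL24, MRPL41, MRPL52, MRPL53 and MRPS36), against 3.83% of all genes. With library totals these classes did not hold, since 43 members were then lower in all 3 comparisons and 23 were lower with each compound with no call between them. On the TMM scale MRPL40, MRPL55 and MRPS25 had no call in any comparison (8.93% of all genes).

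Genes with any of the 3 promoter motifs were counted against the size of the fall. Of the members with a promoter that were called lower by at least 2-fold with RP22, 24 of 30 held a motif (80.0%), against 20 of 38 of the others (52.6%). Any of the 3 was in 64.7% of the promoters of all 68 members. It was in 25.5% of the promoters of genes tested for RP22 against day 1. For the ETS core alone the counts were 14 of 30 (46.7%) and 13 of 38 (34.2%). For the NRF1 motif they were 3 of 30 (10%) and 3 of 38 (7.89%). For the YY1 motif they were 9 of 30 (30%) and 9 of 38 (23.7%). Among members called higher with AA147 than with RP22 on the TMM scale, 9 of 17 held the ETS core (52.9%), and among those lower 2 of 9 (22.2%). The YY1 motif went the other way, with 2 of 17 (11.8%) and 3 of 9 (33.3%), and any of the 3 motifs was in 10 of 17 (58.8%) and 5 of 9 (55.6%). The sets called between the compounds do not hold with library totals, where 1 of the 76 genes was higher and 48 were lower. There 3 of the higher calls turned to lower calls. These are counts on small sets, and no test of them was made.

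Other proteins of the mitochondrial ribosome that carry names outside the MRPL and MRPS series moved in the same direction from day 1. All 7 fell with each compound (medians -0.91 and -0.83). DAP3, a GTP-binding protein of the small subunit, fell the least, from 93.3, 120 and 106 CPM to 79.7, 77.7 and 72.1 CPM with RP22 and 81.9, 88.7 and 80.3 CPM with AA147 (-0.48 ± 0.10 and -0.35 ± 0.10). GADD45GIP1, of the large subunit, fell by the most with RP22 (-1.60 ± 0.11), then AURKAIP1 (-1.21 ± 0.11) and ICT1, a release factor built into the large subunit (-1.11 ± 0.17). PTCD3 fell by the most with AA147 (-1.20 ± 0.08), then GADD45GIP1 (-1.06 ± 0.12) and MRP63 (-0.98 ± 0.13). Between the compounds AURKAIP1 (0.53) and GADD45GIP1 (0.46) were higher with AA147 and PTCD3, a pentatricopeptide repeat protein of the small subunit, was lower (-0.60). With library totals both higher calls were lost.

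Factors that build and modify the mitochondrial ribosome fell as well. Of 22 genes for assembly and rRNA modification in the table, 20 fell with RP22 (median -0.82) and 19 with AA147 (median -0.78). The largest falls with RP22 were those of MRM1, a methyltransferase of the large rRNA (-1.74 ± 0.20), DDX28, an RNA helicase (-1.38 ± 0.17), and MPV17L2 (-1.10 ± 0.15). With AA147 they were DDX28 (-1.53 ± 0.14), MRM1 (-1.51 ± 0.20) and RNMTL1, another rRNA methyltransferase (-1.27 ± 0.15). TFB1M, which methylates the small rRNA, was called lower with RP22 (-0.71 ± 0.10), stood at 0.03 ± 0.11 with AA147, and was higher with AA147 than with RP22 (0.66 ± 0.13, adjusted p = 0.0025). MPV17L2 was also higher (0.49), and MTERFD2, a partner of the rRNA methyltransferase NSUN4, was lower (-0.47), as was the helicase DHX30 (-0.23). With library totals the higher calls of TFB1M and MPV17L2 were lost.

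Of 16 translation and messenger-handling factors, 11 fell with each compound (medians -0.66 and -0.54). SLIRP and LRPPRC, partners that stabilise mitochondrial messengers, had the largest falls. SLIRP went from 77.2, 95.5 and 103 CPM at day 1 to 27.2, 23.6 and 21.6 CPM with RP22 and 26.9, 26.6 and 23.3 CPM with AA147 (-1.94 ± 0.14 and -1.85 ± 0.13). LRPPRC fell by 1.34 and 1.54 on the same scale, then came PDF with RP22 (-1.32 ± 0.23) and TSFM with AA147 (-0.91 ± 0.11). Between the compounds MTRF1L (0.31) and GFM2 (0.23) were higher with AA147, and MTRF1 (-0.58), LRPPRC (-0.28) and OXA1L (-0.26) were lower. With library totals the higher calls of MTRF1L and GFM2 were lost.

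Of 9 genes for upkeep and transcription of mitochondrial DNA, 8 fell with each compound (medians -0.87 and -1.16). TFAM, which packs mitochondrial DNA and starts its transcription, went from 153, 149 and 145 CPM to 73.2, 88.8 and 83.0 CPM with RP22 and 65.04, 64.5 and 61.1 CPM with AA147. It was lower with AA147 than with RP22 (-0.44 ± 0.09, adjusted p = 0.0032). POLRMT, the mitochondrial RNA polymerase, fell with each compound (-1.10 and -1.16) and did not differ detectably between the compounds (-0.14 ± 0.11, adjusted p = 0.30). SSBP1 (-1.41) and the helicase C10orf2 (-1.31) fell by the most with RP22, and C10orf2 (-1.63) with AA147, before TFAM (-1.23) and POLG2 (-1.19). POLG, the DNA polymerase, was the exception. It was not called with RP22 (-0.13 ± 0.08) and was higher with AA147 than at day 1 (0.35 ± 0.09, adjusted p = 0.0071) and than with RP22 (0.40 ± 0.10, adjusted p = 0.0077). With library totals both higher calls of POLG were lost. The genes of the 13 proteins encoded by mitochondrial DNA are listed at 0 in all 9 libraries, so what the ribosome translates was not measured here.

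Regulators of mitochondrial biogenesis moved in both directions. NRF1 fell with each compound (-0.52 ± 0.10 and -0.82 ± 0.13) and was lower with AA147 than with RP22 (-0.38 ± 0.13, adjusted p = 0.033). GABPA, the DNA-binding subunit of GABP, was not called against day 1 (0.22 ± 0.11 with RP22 and 0.08 ± 0.10 with AA147) and was lower with AA147 than with RP22 (-0.22 ± 0.08, adjusted p = 0.047). PPARGC1A, a coactivator of both factors, was near the limit of detection, at 3.53, 4.57 and 6.37 CPM at day 1, 1.31, 2.46 and 3.09 CPM with RP22 and 0.262, 0.690 and 1.13 CPM with AA147 (-1.07 ± 0.37 and -2.76 ± 0.45). PPARGC1B fell from 13.8, 18.3 and 18.1 CPM to 3.08, 3.28 and 4.85 CPM and 1.84, 1.66 and 1.89 CPM (-2.16 ± 0.23 and -3.21 ± 0.21), and PPRC1 by 1.24 and 0.88. ESRRA was higher with AA147 than at day 1 (0.59 ± 0.13), and MYC, PPRC1, ESRRA and YY1 were higher with AA147 than with RP22 (1.13, 0.28, 0.49 and 0.21). With library totals the rise of ESRRA from day 1 was not called, and 1 of the 9 genes was called higher with AA147 than with RP22. In all, 5 of these 9 fell with RP22, and 6 fell and 1 rose with AA147.

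Of 19 genes of the import machinery that brings these proteins into mitochondria, 18 fell with RP22 (median -0.97), and 17 fell and 1 rose with AA147 (median -0.82). HSPA9, the matrix chaperone of the import motor, went from 648, 879 and 815 CPM to 218, 237 and 233 CPM and 230, 268 and 247 CPM (-1.77 ± 0.12 and -1.65 ± 0.12). TOMM40, the channel of the outer membrane, fell by 1.77 and 1.75, and TIMM44 (-1.69) with RP22 and TIMM8A (-1.88) with AA147 completed the largest falls. TIMM17A, of the inner membrane channel, was the gene that rose. It stood at 54.9, 67.9 and 62.9 CPM at day 1, 64.1, 55.0 and 48.0 CPM with RP22 and 95.6, 109 and 101 CPM with AA147 (AA147 against day 1 0.72 ± 0.10, against RP22 0.79 ± 0.11). Between the compounds TIMM22 (0.48) and TOMM7 (0.45) were the next highest with AA147. In all, 6 of the 19 were called higher with AA147 than with RP22, against 29.8% of all 14293 genes tested. With library totals it was 1 of the 19, against 1897 of the 14293.

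The fall of the mitochondrial ribosomal genes was set beside that of 2 related families. Among cytosolic ribosomal proteins 81 of 82 tested fell with RP22 (median -0.68) and 78 with AA147 (median -0.62). Among nuclear-encoded subunits of the respiratory chain 71 of 77 fell with RP22 (median -0.72), and 59 of 76 fell and 3 rose with AA147 (median -0.54). The medians of the mitochondrial ribosomal genes, -0.97 and -0.82, were lower than these. Falls of at least 2-fold with RP22 were called for 33 of 76 mitochondrial ribosomal genes, 6 of 82 cytosolic ones and 16 of 77 respiratory chain genes. Between the compounds, 29 of 75 respiratory chain genes were called higher with AA147 and 2 lower (median 0.17), against 7 and 4 of 82 cytosolic ribosomal genes (median -0.05). Of all genes tested there, 29.8% were called higher and 32.2% lower. With library totals the medians of these 2 families were -0.29 and -0.51, and those of every other mitochondrial list above were negative too. The differences between families were not tested.

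**Figure D5:**
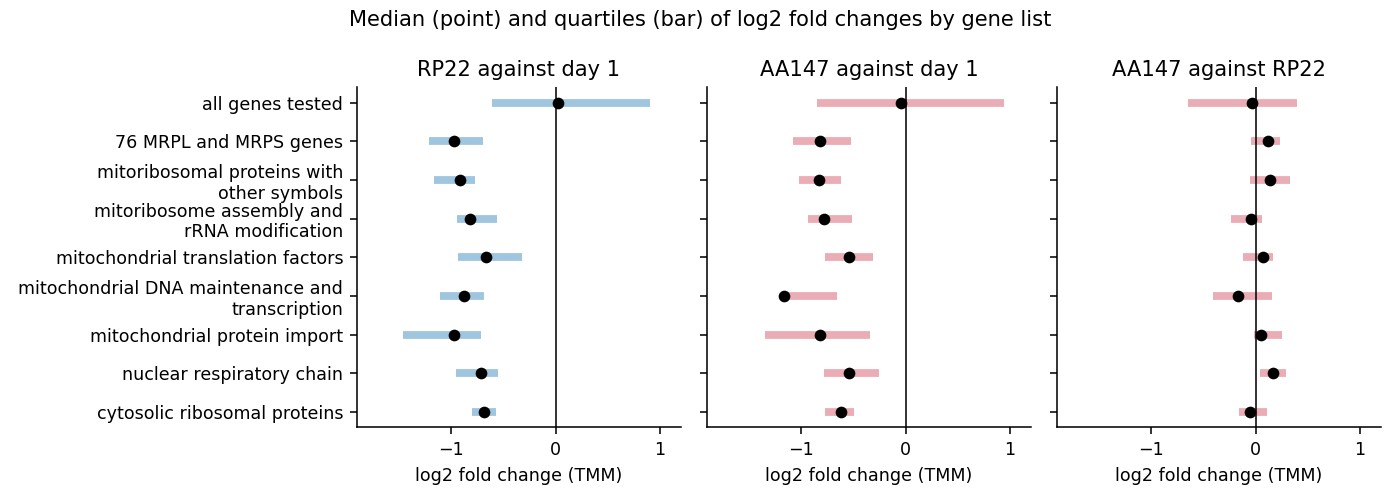
Median (point) and quartiles (bar) of the log2 fold changes (TMM scale) of each gene list and of all genes tested in the 3 comparisons. Against day 1 all lists have medians below 0 (-0.97 and -0.82 for the 76 genes, 0.02 and -0.04 for all genes), and between the compounds the medians lie near 0 (0.12 for the 76 genes, -0.03 for all genes).

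Other cell types and cell division moved with the same groups. The summed level of 7 markers of dividing cells was 2097 to 2300 CPM at day 1, 1241 to 1311 CPM with RP22 and 458 to 610 CPM with AA147. Of these 7 markers 5 fell and 1 rose with RP22, and all 7 fell with AA147 and were lower with AA147 than with RP22. Markers of smooth muscle and mesenchyme summed to 426 to 463 CPM at day 1, 9247 to 20802 CPM with RP22 and 54366 to 58604 CPM with AA147, and RP22 replicate 1 was the highest of the RP22 libraries. Markers of neural cells summed to 234 to 387, 751 to 974 and 6.30 to 9.18 CPM, those of endothelium to 37.9 to 58.1, 85.9 to 180 and 5.52 to 22.3 CPM, and those of liver and yolk sac to 5.30 to 8.95, 81.3 to 134 and 0.965 to 3.15 CPM. The part of these cell types in the results above was not tested.

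Transcript length went with the fold changes against day 1 over all genes, but not in the same way among the members. By the length implied by counts and RPKM, 62 of the 76 genes were among the shortest 2771 of 11084 genes, from 339 to 2053 bases. All 2771 genes together had medians of -0.43 with RP22 and -0.27 with AA147 against day 1, and 0.12 for AA147 against RP22. The 62 members there had medians of -1.004, -0.85 and 0.13. The median of AA147 against RP22 was thus near that of all 2771 short genes, which include the members. The medians against day 1 were lower than those of the short genes. Over the 11084 genes the Spearman correlation of length with log2 fold change was 0.27 for RP22 and 0.16 for AA147 against day 1. Among the 76 members it was 0.001 and -0.15. For AA147 against RP22 it was -0.08 over all genes and -0.35 among the members. The part of length in the result was not tested.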

How the data were processed

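RNA of 9 libraries was sequenced. The deposited expected counts, assigned to genes by the authors before deposit, were 0.914% fractional values and were rounded. The value 0.05 stands for 0 in them. The deposited RPKM values (reads scaled to gene length and library total, per the file headers) served for levels between genes and for an alternative test. Reads were mapped to GRCh37.p13, per the submitters' processing notes, while no source used here names the aligner or the counter. Each pair of groups (6 libraries) was tested over all genes with edgeR 4.0.16 (filterByExpr, TMM, robust quasi-likelihood F test) in R 4.3.3, with Benjamini-Hochberg adjustment at 0.05. The fit was checked on simulated data in which few genes changed, so that check does not bear on the choice of scale. Counts of the 42 symbols on 2 rows (no member) were summed. Alternatives used DESeq2 1.42.0, limma 3.58.1, other scalings and filters, all 9 libraries, a replicate block and libraries left out. The members, the gene lists and the rule for named genes were chosen with earlier results of these data known. The rule takes the 4 largest called rises and falls without overlap per comparison, the 3 highest and lowest by RPKM, the MRPS18 genes, the structural lists, and up to 3 rises and falls per other list. The p-values measure the spread between the 3 experiments of 1 cell line. Depth, at 9223026 to 10118260 reads per library, limits precision for genes of a few CPM.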

Additional observations from a re-analysis of the deposited data

Results flagged for a closer look

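On the TMM scale, the difference of AA147 from day 1 and that of RP22 from day 1 had opposite signs in 6 genes whose difference between the compounds also passed edgeR's test. The day 1 libraries are the same on both sides, so the test is that of AA147 against RP22. Each pair of groups was scaled and fitted on its own, so the value between the compounds is not a subtraction of the other values. MRPL33 was at 0.70 with AA147 and -0.10 with RP22, and at 0.72 for AA147 against RP22 (log2, adjusted p = 0.00032, higher in 3 of 3 libraries). MRPL17 was at 0.34 and -0.47, and at 0.72 between the compounds (adjusted p = 0.0056). MRPL24 was at 0.05 and -0.74, and at 0.71 between them (adjusted p = 0.00097). For MRPS36 the values were 0.09 and -0.57 (0.58 between the compounds, adjusted p = 0.0092). For MRPL41 they were 0.02 and -0.61 (0.55 between the compounds, adjusted p = 0.0035). For MRPL53 they were 0.11 and -0.37 (0.39 between the compounds, adjusted p = 0.021). The rise from day 1 with AA147 was itself called only for MRPL33 and MRPL17. The opposite signs stayed with library totals only for MRPL33 (0.26 with AA147 and -0.004 with RP22). AA147 against day 1 was then at -0.10 for MRPL17, -0.39 for MRPL24, -0.35 for MRPS36, -0.42 for MRPL41 and -0.33 for MRPL53. Their values for RP22 against day 1 were negative too. Of these, MRPL41 was called lower with AA147 than at day 1 (adjusted p = 0.015). With library totals alone MRPL33 kept its call between the compounds (0.27, adjusted p = 0.036), while MRPL17 (0.27), MRPL24 (0.26), MRPS36 (0.12) and MRPL41 (0.10) were not called and MRPL53 turned to -0.061. The cause of these differences was not tested.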

How the results depend on the processing

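With library totals in place of TMM, AA147 against RP22 gave 1 gene higher and 48 lower, with a median of -0.34. The sign then turned from positive to negative for 46 of the 76, among them MRPL53 (-0.061), MRPL23 (-0.34), MRPL44 (-0.30), MRPL45 (-0.43), MRPL18 (-0.17), MRPL38 (-0.24), MRPL40 (-0.32), MRPL52 (-0.0079), MRPS30 (-0.31) and MRPS18A (-0.33). With limma on log2(RPKM + 0.1), with or without its filter, 2 or 1 were higher and 53 lower (median -0.32), and with the filter the sign turned for 45, among them MRPL53 (-0.061), MRPL23 (-0.30), MRPL44 (-0.30), MRPL45 (-0.43), MRPL18 (-0.17), MRPL27 (-0.29), MRPL38 (-0.24), MRPL46 (-0.40), MRPL48 (-0.38), MRPL52 (-0.020), MRPS30 (-0.30) and MRPS18A (-0.32). With log2(RPKM + 1), 2 were higher and 53 lower (median -0.31), and the genes just named, in that order, stood at -0.058, -0.30, -0.28, -0.41, -0.17, -0.28, -0.23, -0.37, -0.36, -0.019, -0.28 and -0.30. The RPKM values carry no TMM scaling. Over all genes, 48.1% of calls between the compounds were higher with TMM and 18.2% with library totals. DESeq2 called 5 lower, and all 9 libraries in one fit 5 lower with a median of 0.20. Leaving out 1 library gave 12 to 18 higher, 3 to 7 lower and medians of 0.10 to 0.14.

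For RP22 against day 1 the median was -0.87 with library totals, -0.86 with RPKM + 0.1 and -0.83 with RPKM + 1. Leaving out 1 library gave 68 to 72 lower, 0 higher and medians of -1.05 to -0.89. For AA147 against day 1 the medians in those settings were -1.25, -1.24 and -1.20, and 1 gene was higher in each and with all 9 libraries. MRPL17 then stood at -0.10 with library totals and at -0.093 and -0.089 with RPKM, and MRPL53 at -0.32 and -0.31 with RPKM. Leaving out 1 library gave 1 to 2 higher, 64 to 65 lower and medians of -0.85 to -0.76. The cause of these shifts was not tested.

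Correlations of same-numbered deviations were 0.19, 0.15 and 0.063 between AA147 and RP22 and -0.055 to 0.058 with day 1. Between AA147 and RP22 libraries of unlike number they ran from -0.20 to 0.11. Whether replicate numbers pair the libraries was not tested. With the replicate block 13 were higher and 7 lower between the compounds (median 0.12), 0 and 68 for RP22 against day 1 (median -0.97), and 2 and 64 for AA147 against day 1 (median -0.82). Genes with levels of a few CPM are limited by depth.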
